A study of Saccharomyces cerevisiae with 11 samples.

Results

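A set of 10 genes of ethanol and aldehyde metabolism was followed across all 11 libraries of budding yeast (Saccharomyces cerevisiae): the alcohol dehydrogenase genes ADH1, ADH2, ADH3, ADH5, ADH6 and SFA1, and the aldehyde dehydrogenase genes ALD2, ALD3, ALD4 and ALD6. They were chosen by name, with earlier results of these data known, and found through their NCBI Gene numbers. All 10 had a row in both deposited tables, of 5936 rows with GD, SD and control and 5931 rows with RD and ControlSYN3. The values are FPKM, which count fragments relative to gene length and to all fragments mapped in that library, from RNA libraries made with oligo-dT beads. The first table holds 3 libraries of strains with the genotype label GD (GD1, GD2, GD3), 3 with SD (SD1, SD2, SD3) and 1 wild-type library, control. The second holds 3 libraries of strains labelled RD (RD1, RD5, RD6) and 1 library labelled ControlSYN3, whose genotype is also given as wild-type. The labels do not spell out GD, SD or RD, and they give no allele, medium, growth phase or culture. The series concerns essential genes brought together in clusters, with sequence tags that tell synthetic from wild-type copies. The RD columns are headed MD1, MD5 and MD6 and were matched by number, which is an inference.

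Yeast that grows on glucose turns pyruvate into acetaldehyde, and alcohol dehydrogenase then reduces acetaldehyde to ethanol and frees NAD+ for glycolysis. Once glucose is low, the same carbon runs the other way: ethanol is oxidised to acetaldehyde, and aldehyde dehydrogenases oxidise acetaldehyde to acetate for acetyl-CoA. Separate isoenzymes serve the 2 directions and the cytosol and mitochondria, and several of their genes are repressed by glucose or induced by stress.

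The coding ranges in the R64 reference are as follows. ADH1 lies on chromosome XV (159548 to 160594, minus strand) and ADH2 on chromosome XIII (873291 to 874337, minus strand). ADH3 (434788 to 435915, plus strand) and ADH6 (911061 to 912143, minus strand) are also on chromosome XIII, ADH5 is on chromosome II (533762 to 534817, plus strand) and SFA1 on chromosome IV (159604 to 160764, plus strand). ALD2 (601562 to 603082) and ALD3 (599352 to 600872) are neighbours on the minus strand of chromosome XIII. ALD4 is on the plus strand of chromosome XV (1039840 to 1041399) and ALD6 on that of chromosome XVI (432588 to 434090). Each coding sequence is a single unbroken range.

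Of these genes, 2 pairs are close copies of each other, which bears on how reads can be assigned. ADH1 and ADH2 have the same base at 88.8% of 1047 aligned coding positions, and ALD2 and ALD3 at 91.8% of 1521. Of the stretches of 50 bases in the coding sequence, 14.0% of those of ADH1 and of ADH2 occur elsewhere in the genome, as do 40.4% of those of ALD2 and of ALD3, and none of those of the other 6 genes. The first 60 coding bases of both pairs, from the RefSeq R64 genome, are shown 5′ to 3′ because they make this visible (chrXV:160535-160594 for ADH1, chrXIII:874278-874337 for ADH2, chrXIII:603023-603082 for ALD2 and chrXIII:600813-600872 for ALD3, all on the minus strand), with the 7 bases that differ between ADH1 and ADH2 in capitals; ALD2 and ALD3 do not differ there.
ADH1: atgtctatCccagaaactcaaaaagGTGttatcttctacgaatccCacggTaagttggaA
ADH2: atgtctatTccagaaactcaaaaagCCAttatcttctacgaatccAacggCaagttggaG
ALD2: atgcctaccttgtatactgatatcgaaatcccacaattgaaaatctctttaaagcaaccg
ALD3: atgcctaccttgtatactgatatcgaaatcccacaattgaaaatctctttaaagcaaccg
No source used here says how reads that fit both genes of a pair were shared out, and the split between ADH1 and ADH2 and between ALD2 and ALD3 is uncertain.

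One library stood apart. All 6 listed a-type mating genes ranged over 76.5 to 2559 FPKM in RD1 against 3.47 to 22.1 FPKM in RD5, RD6 and ControlSYN3, while all 5 listed alpha-type genes ranged over 22.4 to 96.5 FPKM in RD1 against 546 to 6637 FPKM in those 3. The a-type genes summed to 39.9 to 129 FPKM in GD, 112 to 145 FPKM in SD and 261 FPKM in the control, and the alpha-type genes to 6895 to 11850 FPKM in GD, 2763 to 5299 FPKM in SD and 9362 FPKM in the control. Results on RD are therefore given with and without RD1. The depth of the libraries is unknown, since FPKM hold no counts. Tests used limma on log2(FPKM + 1) within a table, with Benjamini-Hochberg adjustment over all 5899 or 5895 genes tested and a threshold of 0.05; all 10 genes passed the minimum mean of 1 FPKM. Nothing says that the libraries of a group came from separate cultures, so p-values measure only the spread between these libraries, and the fit gives each lone wild-type library the variance of the strain libraries. The median log2 fold change of all genes was -0.44 in GD against control, -0.37 in SD against control, -0.04 in GD against SD and -0.10 in RD against ControlSYN3. With median-of-ratios scaling, which brings these medians near 0, the genes called in GD against control were 550 higher and 530 lower, in place of 294 and 1601, and in SD against control 1103 and 1032, in place of 616 and 1852.

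ADH1 ranked first of the 10 genes in FPKM in all 11 libraries. Its share of the summed FPKM of ADH1, ADH2, ADH3 and ADH5 was 60.6% to 74.2% in GD, 47.7% to 66.9% in SD and 72.4% in the control. In the other table it was 60.4% in RD1, 87.3% in RD5, 88.5% in RD6 and 76.2% in ControlSYN3. With ADH4, ADH6 and SFA1 added to the sum, the share of ADH1 was 32.9% to 52.7% in GD, 39.5% to 57.1% in SD, 61.3% in the control, 43.2% to 77.9% in RD and 70.9% in ControlSYN3, and in GD1 ADH4 lay above ADH1. The lowest gene of the 10 was ALD2 in 7 libraries, ADH2 in 3 and ADH5 in 1, the control. Together the 10 genes held 0.204% to 0.266% of all FPKM in GD, 0.253% to 0.294% in SD and 0.273% in the control, and 0.341% to 0.510% in RD and 0.499% in ControlSYN3.

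**Figure D1:**
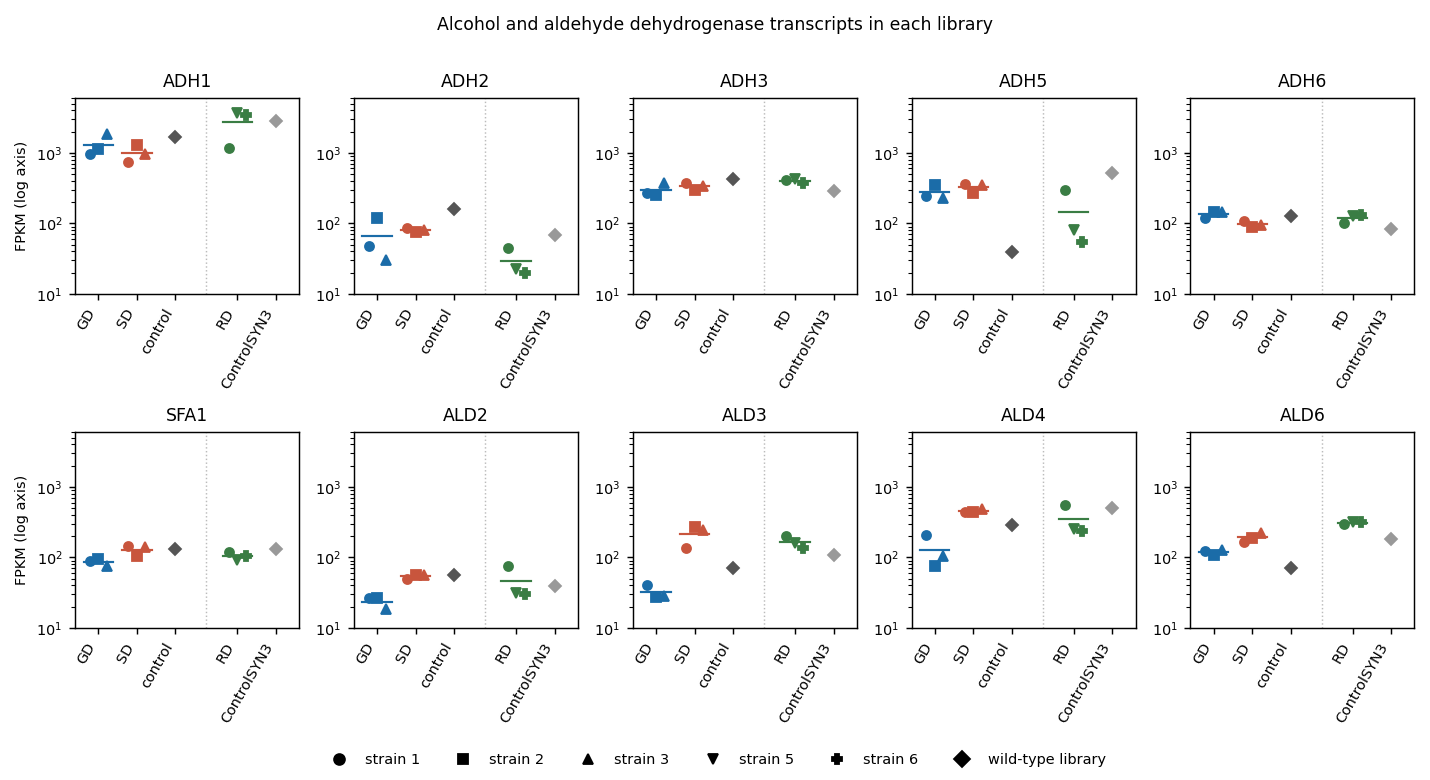
FPKM (log axis) of each of the 10 genes in each library, with one point per library, a line at the mean of a strain group, and a dotted line between the 2 tables. ADH1 lies highest in every library, ADH5 is at 228 to 356 FPKM in GD and SD but at 39.6 FPKM in control, and ALD3 and ALD4 lie lower in GD than in SD.

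The first comparison set GD against the control. ADH5, a minor alcohol dehydrogenase gene, rose to 6.95 times the control level and ALD2, a cytosolic aldehyde dehydrogenase gene, fell to 0.419 of it. Of the 10 genes, 2 were called, 1 higher and 1 lower, where 32.1% of all genes tested were called, 4.98% higher and 27.1% lower. GD lay wholly to one side of the control in 8 of the 10, against 75.8% of all genes. The median log2 fold change of the 10 was -0.59, against -0.44 for all genes.

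ADH5 had 247 FPKM in GD1, 351 in GD2 and 228 in GD3, against 39.6 FPKM in control. Every GD library lay above it. Its mean was 275 ± 66.4 FPKM in GD (standard deviation, n = 3), and the log2 fold change was 2.74 ± 0.31 SE (limma adjusted p = 0.00336), or 3.18 above the median of all genes. In the same table it had 356 FPKM in SD1, 265 in SD2 and 345 in SD3, so the control was the low library and GD and SD overlapped. In the other table ControlSYN3 was the high one, at 521 FPKM. Each wild-type sample is a single library, so its own state and a strain effect cannot be told apart.

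ALD2, which with ALD3 serves the route from 3-aminopropanal to beta-alanine for coenzyme A, had 26.4 FPKM in GD1, 26.2 in GD2 and 18.4 in GD3, against 56.4 FPKM in control. Every GD library lay below it, at -1.24 ± 0.24 SE on the log2 scale (limma adjusted p = 0.0105). Over 13 alternatives the adjusted p ran between 0.00563 and 0.0667, and the call was lost only in the fit that held no library other than GD and control. ALD3 and ALD4 had like sizes but did not pass the test. ALD3 was at 40.9, 27.8 and 28.6 FPKM in GD, against 70.6 FPKM in the control (log2 fold change -1.12, 95% interval -2.06 to -0.18; limma adjusted p = 0.0683), and was called without SD1 (0.0363, over a range of 0.0363 to 0.276). ALD4, the gene of the main mitochondrial acetaldehyde dehydrogenase, was at 206, 75.9 and 104 FPKM in GD, against 291 FPKM in the control (-1.30, interval -2.42 to -0.18; limma adjusted p = 0.0737), and was called without GD1 (0.0166, over a range of 0.0166 to 0.254). All GD libraries lay below the control for both.

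ADH2, the glucose-repressed enzyme that oxidises ethanol, had 48.2 FPKM in GD1, 121 in GD2 and 30.0 in GD3, against 161 FPKM in control. All 3 lay below the control, but GD2 lay far from the others, and the gene was not called (log2 fold change -1.51 ± 0.63 SE; limma adjusted p = 0.103). Without GD2 the log2 fold change was -2.05 with an adjusted p of 0.00278, the lowest of 13 alternatives, the highest being 0.214. Without GD2 the genes called were 5 of the 10, with ADH2, SFA1 and ALD6 added, where 47.1% of all genes were called in that fit. ALD6, the gene of the constitutive cytosolic enzyme that makes acetate during growth on glucose, was at 124, 108 and 125 FPKM in GD, against 71.4 FPKM in the control. The log2 fold change of 0.73 missed the threshold (limma adjusted p = 0.0513) and passed it with median-of-ratios scaling (1.14; adjusted p = 0.033), with values rescaled to a common sum (0.0493), without a variance trend (0.0491) and without GD2 (0.0229), over a range of 0.0229 to 0.150.

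ADH1, the fermentative enzyme, had 960 FPKM in GD1, 1116 in GD2 and 1822 in GD3, against 1652 FPKM in control, and the groups overlapped. The difference was not detectable (log2 fold change -0.40, 95% interval -1.46 to 0.66) and turned to 0.013 with median-of-ratios scaling. ADH3, the mitochondrial isoenzyme, was at 269, 254 and 375 FPKM in GD, against 430 FPKM in the control (-0.54, interval -1.23 to 0.14). ADH6, an NADPH-dependent enzyme with a broad range of aldehydes, was at 121, 146 and 146 FPKM in GD, against 127 FPKM in the control (0.11, interval -0.39 to 0.61). SFA1, which encodes the glutathione-dependent formaldehyde dehydrogenase and also acts on long-chain alcohols, was at 88.0, 94.7 and 75.4 FPKM in GD, against 133 FPKM in the control (-0.63, interval -1.22 to -0.04; limma adjusted p = 0.0909). Relative to the shift of all genes, SFA1 and ADH3 were lower by little: their log2 fold changes less the median of all genes were -0.19 and -0.10.

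The second comparison set SD against the same control library, so the comparisons share it. ADH5, ALD3 and ALD6 rose, and none of the 10 fell by the test. Called were 3 of the 10, all higher, where 41.8% of all genes tested were called, 10.4% higher and 31.4% lower. SD lay wholly to one side of the control in 8 of the 10, against 88.9% of all genes. The median log2 fold change of the 10 was -0.05, against -0.37 for all genes.

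ADH5 gave the largest of these, at 2.98 ± 0.31 SE on the log2 scale (limma adjusted p = 0.000968), with the per-library values given above. ALD6 had 165 FPKM in SD1, 190 in SD2 and 224 in SD3, against 71.4 FPKM in control, a mean of 193 ± 29.6 FPKM in SD (standard deviation, n = 3). Every SD library lay above the control, and the log2 fold change was 1.41 ± 0.24 SE (limma adjusted p = 0.00377). ALD3, a stress-induced cytosolic enzyme gene, had 135 FPKM in SD1, 272 in SD2 and 243 in SD3, against 70.6 FPKM in control, with SD1 the lowest of the 3. The log2 fold change came to 1.54 ± 0.40 SE (limma adjusted p = 0.0193). The call was lost without SD3, with an adjusted p of 0.0547, the highest of 13 alternatives; the lowest was 0.00838.

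ALD2, the neighbour of ALD3, had 49.5, 57.1 and 57.0 FPKM in the SD libraries, against 56.4 FPKM in control. Its SD libraries lay on both sides of the control (log2 fold change -0.05, 95% interval -0.61 to 0.51), and the sign turned with median-of-ratios scaling and with values rescaled to a common sum. ALD4 was at 442, 444 and 489 FPKM in SD, all above the 291 FPKM of the control, but did not pass the test (0.65, interval -0.47 to 1.77; limma adjusted p = 0.305), except in the fit of SD and control alone (0.0231, over a range of 0.0231 to 0.437). ADH2 had 87.0, 75.7 and 79.6 FPKM in the SD libraries, against 161 FPKM in control. The 3 SD values lay close together and all below the control, and the log2 fold change was -0.99 (limma adjusted p = 0.239). It was called lower without GD2 (adjusted p = 0.0152) and in the fit of SD and control alone (0.00325); the highest of 13 alternatives was 0.430. The standard deviation of ADH2 was 47.9 FPKM over the GD libraries, which share the fit, and 5.73 FPKM over the SD libraries. ADH1 was at 742, 1287 and 977 FPKM in SD, all below the 1652 FPKM of the control (-0.76, interval -1.82 to 0.30). The remaining 3 did not pass the test. ADH3 had 370, 295 and 336 FPKM in the SD libraries, all below the 430 FPKM of the control (-0.37, interval -1.05 to 0.31; 0.00906 with median-of-ratios scaling). ADH6 had 107, 89.5 and 94.6 FPKM in the SD libraries, all below the 127 FPKM of the control (-0.39, interval -0.89 to 0.11). SFA1 had 144, 104 and 139 FPKM in the SD libraries, on both sides of the 133 FPKM of the control (-0.06, interval -0.64 to 0.53).

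**Figure D2:**
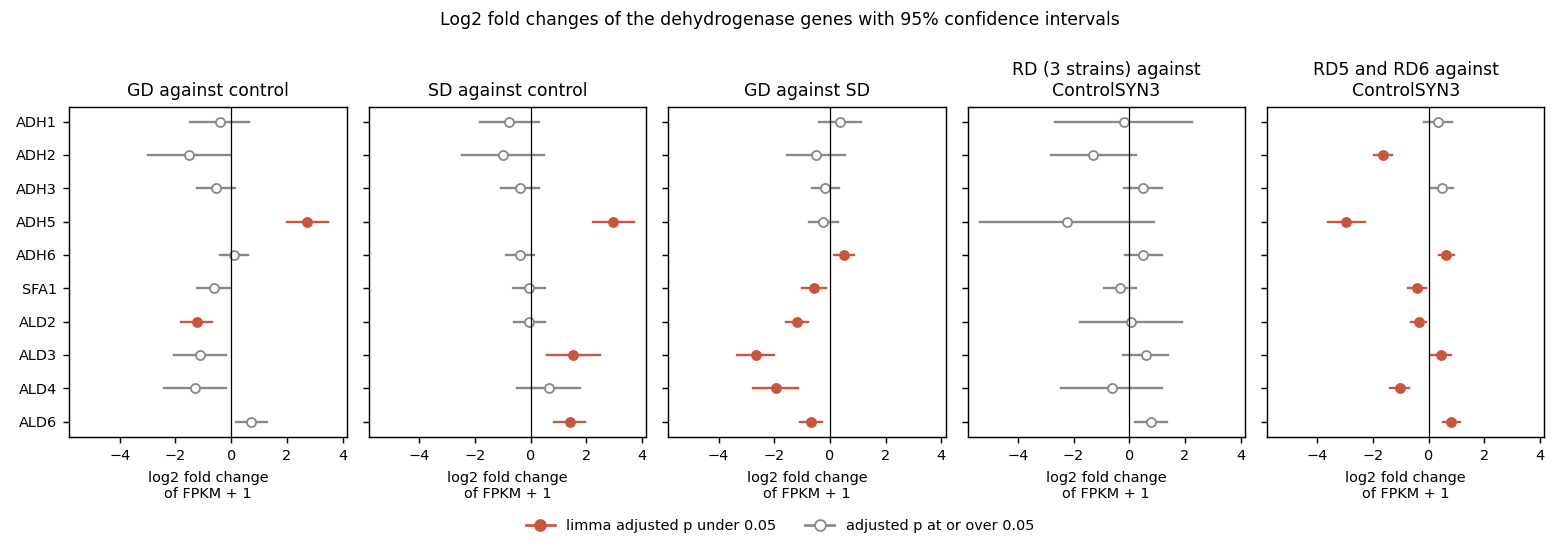
Log2 fold change of FPKM + 1 with its 95% confidence interval for each gene (rows) in 5 comparisons (panels); filled red points passed the limma adjusted p of 0.05. ALD2, ALD3, ALD4 and ALD6 lie left of 0 in GD against SD, and ADH5 lies right of 0 against the control and left of 0 against ControlSYN3.

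GD against SD compares 3 libraries with 3 and does not use the control's level. All 4 aldehyde dehydrogenase genes of the set and SFA1 were lower in GD, and ADH6 was higher. ALD5, an aldehyde dehydrogenase gene outside the set, had a log2 fold change of -0.02 and was not called (limma adjusted p = 0.949). Called were 6 of the 10, 5 lower and 1 higher, where 40.8% of all genes tested were called, 20.4% lower and 20.4% higher. The groups did not overlap in 6 of the 10, against 56.4% of all genes. The median log2 fold change of the 10 was -0.54, against -0.04 for all genes. Of the mating-type lists, 4 of 5 alpha-type genes were called higher and 1 of 6 a-type genes lower in GD than in SD, and their part in these results was not tested.

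ALD3 differed most. It averaged 32.4 ± 7.35 FPKM in GD and 216 ± 72.1 FPKM in SD (standard deviation, n = 3 each), and its log2 fold change was -2.66 ± 0.29 SE (limma adjusted p = 0.000663). ALD4 averaged 129 ± 68.6 FPKM in GD and 458 ± 26.8 FPKM in SD (standard deviation, n = 3 each), with GD1 the highest of the GD libraries; the log2 fold change was -1.95 ± 0.34 SE (limma adjusted p = 0.00442). ALD2, whose reads may be shared with ALD3, averaged 23.7 ± 4.54 FPKM in GD and 54.6 ± 4.40 FPKM in SD (standard deviation, n = 3 each), or -1.19 ± 0.17 SE on the log2 scale (limma adjusted p = 0.00197). These 3 calls held in each of the 14 alternatives, the highest adjusted p being 0.00532, 0.023 and 0.0145. ALD6 averaged 119 ± 9.93 FPKM in GD and 193 ± 29.6 FPKM in SD (standard deviation, n = 3 each). Its difference of -0.68 ± 0.17 SE on the log2 scale (limma adjusted p = 0.0152) was the smallest among the aldehyde dehydrogenase genes of the set. It was not called without SD3, with an adjusted p of 0.0746, the highest of 14 alternatives; the lowest was 0.0134.

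The calls on ADH6 and SFA1 were less firm. ADH6 averaged 137 ± 14.5 FPKM in GD and 96.9 ± 8.79 FPKM in SD (standard deviation, n = 3 each), or 0.50 ± 0.15 SE on the log2 scale (limma adjusted p = 0.034). That call was lost without GD3, SD1, SD2 or SD3 (limma adjusted p of 0.0686, 0.0671, 0.120 and 0.124) and with values rescaled to a common sum (0.0537), over a range of 0.0314 to 0.124. The ADH6 call was also lost with strain number as a replicate block. SFA1 averaged 86.0 ± 9.82 FPKM in GD and 129 ± 21.6 FPKM in SD (standard deviation, n = 3 each), or -0.57 ± 0.18 SE on the log2 scale (limma adjusted p = 0.0364). The SFA1 call was lost without GD1, GD3, SD1 or SD3 (limma adjusted p of 0.0854, 0.0861, 0.133 and 0.136), over a range of 0.02 to 0.136. With strain number as a replicate block it was lost as well. Without SD3, 3 of the 10 genes were called, all lower, where 21.4% of all genes were called in that fit.

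The other 4 genes of the set, ADH1, ADH2, ADH3 and ADH5, did not pass the test between GD and SD. ADH4, an alcohol dehydrogenase gene outside the set, was higher in GD by 3.10 on the log2 scale (limma adjusted p = 0.00119). ADH1 averaged 1299 ± 459 FPKM in GD and 1002 ± 274 FPKM in SD (standard deviation, n = 3 each; log2 fold change 0.36, 95% interval -0.39 to 1.10). ADH3 averaged 299 ± 66.0 FPKM in GD and 334 ± 37.7 FPKM in SD (standard deviation, n = 3 each; -0.17, interval -0.66 to 0.31), and ADH5 averaged 275 ± 66.4 FPKM in GD and 322 ± 49.6 FPKM in SD (standard deviation, n = 3 each; -0.24, interval -0.75 to 0.27). ADH2 averaged 66.3 ± 47.9 FPKM in GD and 80.8 ± 5.73 FPKM in SD (standard deviation, n = 3 each), with GD2 above and GD1 and GD3 below all SD libraries. Its log2 fold change was -0.52 (interval -1.56 to 0.52; limma adjusted p = 0.378), and without GD2 it was -1.06 (adjusted p = 0.00478, the lowest of 14 alternatives, with 0.876 the highest).

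Ratios within a library do not depend on how libraries are scaled to each other. ALD4, in mitochondria, stood to cytosolic ALD6 at 1.66, 0.706 and 0.827 in GD1, GD2 and GD3, and at 2.68, 2.34 and 2.19 in SD1, SD2 and SD3, with 4.08 in the control. GD and SD did not overlap. The mean log2 ratio was -0.01 ± 0.66 in GD and 1.26 ± 0.15 in SD (standard deviation, n = 3 each), a difference of -1.27 (exact two-sided permutation test p = 0.1, the smallest that 3 against 3 libraries allow). The ratio was 1.87 in RD1, 0.792 in RD5, 0.739 in RD6 and 2.78 in ControlSYN3. ADH2 stood to ADH1 at 0.0165 to 0.108 in GD and 0.0588 to 0.117 in SD, with 0.0974 in the control, and GD and SD overlapped (difference in mean log2 ratio -0.88; exact permutation p = 0.4). ADH3 stood to ADH1 at 0.206 to 0.280 in GD and 0.229 to 0.499 in SD, which overlapped as well (difference -0.53; exact permutation p = 0.2).

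**Figure D3:**
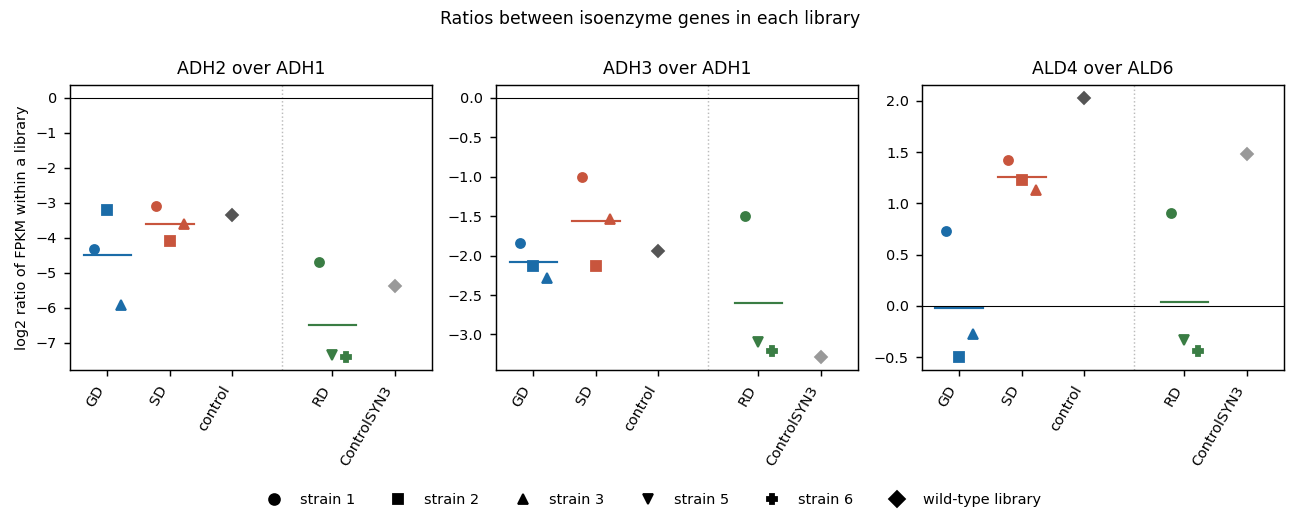
Log2 ratio of FPKM of ADH2 over ADH1, ADH3 over ADH1 and ALD4 over ALD6 in each library, with a line at the mean of a strain group and a dotted line between the tables. For ALD4 over ALD6 the GD libraries lie between -0.50 and 0.73 and the SD libraries between 1.13 and 1.42.

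Stretches upstream of ALD2, ALD3, ALD4 and ADH5 in the RefSeq R64 genome are shown because ALD2, ALD3 and ALD4 were lower in GD than in SD and ADH5 had the largest change against the control. Each line holds the 100 bases from 250 to 151 before the start codon, 5′ to 3′ on the coding strand: chrXIII:603233-603332 (minus) for ALD2, chrXIII:601023-601122 (minus) for ALD3, chrXV:1039590-1039689 (plus) for ALD4 and chrII:533512-533611 (plus) for ADH5. Capitals mark, on either strand, the stress element CCCCT, the Adr1 site TTGGAG and the Gcn4 core site TGACTC.
ALD2: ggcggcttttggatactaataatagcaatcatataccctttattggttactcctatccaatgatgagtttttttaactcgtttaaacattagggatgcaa
ALD3: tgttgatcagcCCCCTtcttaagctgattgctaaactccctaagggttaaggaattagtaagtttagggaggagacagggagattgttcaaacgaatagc
ALD4: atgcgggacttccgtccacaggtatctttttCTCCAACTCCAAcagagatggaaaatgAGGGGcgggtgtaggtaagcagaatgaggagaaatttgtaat
ADH5: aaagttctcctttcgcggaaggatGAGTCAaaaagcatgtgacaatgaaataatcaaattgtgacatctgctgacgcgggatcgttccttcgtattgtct
The search covered the 250 bases before the start codon on both strands and also took in the zinc-responsive element of Zap1 and a second form of the Adr1 site, TTGGGG. The stress element, CCCCT, which the stress factors Msn2 and Msn4 read, was found in 3 of the 10 genes, ALD3, ALD4 and ALD6, at 239, 192 and 249 bases before the start codon, and in 18.7% of the 6020 protein-coding genes. TTGGAG was found in SFA1 and, in 2 adjacent copies that do not overlap, in ALD4 (8.37% of all genes). TGACTC, added after the values of ADH5 had been seen, was found in ADH3, ADH5 and ALD3 (6.23% of all genes). The Zap1 site (0.166% of all genes) and TTGGGG (4.15%) were in none of the 10. A match is a description of the letters and not a binding site. Sequence farther than 250 bases before the start codon was not searched, so a gene without a match here may still have a site.

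The surrounding pathway was described with 7 lists of genes, also chosen with earlier results of these data known. In GD against SD, 20.4% of all genes tested were called lower and 20.4% higher. Of the stress element genes, 15 of 16 were lower and none higher, with a median log2 fold change of -2.43 against -0.04 for all genes. HSP26, a small heat shock protein gene, was at 400 to 716 FPKM in GD and 5900 to 10620 FPKM in SD (log2 fold change -4.05; limma adjusted p = 0.000264). SOL4, of the pentose phosphate pathway, was at 28.1 to 41.2 FPKM in GD and 402 to 467 FPKM in SD (-3.56; limma adjusted p = 6.87e-05), and DCS2, a stress-induced gene related to decapping, at 55.1 to 99.3 FPKM in GD and 511 to 618 FPKM in SD (-2.90; limma adjusted p = 0.000241). Of 14 targets of Adr1 and Cat8, the activators of ethanol and acetate use, 12 were lower and none higher (median -1.55). ACS1, the acetyl-CoA synthetase gene downstream of the aldehyde dehydrogenases, was at 14.3 to 18.2 FPKM in GD and 68.9 to 80.7 FPKM in SD (-2.08; limma adjusted p = 0.000125). POT1, a peroxisomal thiolase gene of fatty acid oxidation, had a log2 fold change of -2.19 (limma adjusted p = 0.000348), and GUT1, the glycerol kinase gene, one of -1.59 (limma adjusted p = 0.000357).

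Of 16 regulator genes, 1 was higher and 5 lower in GD than in SD (median -0.27), where 20.4% of all genes were higher and 20.4% lower. CAT8 was at 5.27 to 7.11 FPKM in GD and 27.2 to 47.2 FPKM in SD (-2.40; limma adjusted p = 0.000436), and MSN4 at 82.6 to 102 FPKM in GD and 287 to 397 FPKM in SD (-1.80; limma adjusted p = 0.000584). MIG1, a repressor in glucose, was at 48.6 to 59.7 FPKM in GD and 155 to 183 FPKM in SD (-1.61; limma adjusted p = 0.000366). Of 16 genes of the ethanol and acetate route, 4 were higher and 4 lower (median -0.03). ADH4, an alcohol dehydrogenase gene unrelated in sequence family to ADH1 and known to rise when zinc is short, had 1185 FPKM in GD1, 490 in GD2 and 779 in GD3, against 73.5 FPKM in SD1, 137 in SD2 and 69.9 in SD3 (3.10; limma adjusted p = 0.00119). Of 11 targets of the zinc regulator Zap1, ADH4 among them, 5 were higher and none lower (median 0.58). IZH4 and IZH2, of zinc balance, had log2 fold changes of 1.85 and 0.94 (limma adjusted p = 0.0148 and 0.0228). The other 6 were not called, among them ZRT1, ZRT2 and ZAP1 at 0.54, 0.29 and 0.69 (limma adjusted p = 0.164, 0.607 and 0.124). ZRT1 lay above the control in both groups, by 5.67 in GD and 5.12 in SD on the log2 scale. Of 8 genes of the coenzyme A and beta-alanine route, to which ALD2 and ALD3 belong, 5 were higher and none lower (median 0.46). SPE3, the spermidine synthase gene, was higher by 1.42 (limma adjusted p = 0.0105). FMS1 had a log2 fold change of -0.56 and was not called (limma adjusted p = 0.275). Of 23 enzymes of fusel and other aldehydes, 1 was higher and 10 lower (median -0.49). OYE3, an NADPH oxidoreductase gene, was at 8.44 to 22.0 FPKM in GD and 156 to 259 FPKM in SD (-3.69; limma adjusted p = 0.000423). GCY1, a glycerol dehydrogenase gene, and HFD1, a fatty aldehyde dehydrogenase gene, had log2 fold changes of -2.44 and -1.72 (limma adjusted p = 0.00078 and 0.000856).

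Against the control, the lists were read beside the same single library. Of all genes tested, 4.98% were called higher and 27.1% lower in GD, and 10.4% higher and 31.4% lower in SD. With median-of-ratios scaling, 18.3% of all genes were called in GD and 36.2% in SD. In GD, 6 of 16 genes of the ethanol and acetate route were higher and 3 lower, with a median of 0.34 against -0.44 for all genes. Among the stress element genes 1 of 16 was higher and 3 lower (median -0.46). For the Adr1 and Cat8 targets 1 of 14 was higher and 6 lower (median -0.82), 1 and 1 with median-of-ratios scaling. Zap1 targets had 6 of 11 higher and none lower (median 1.56), regulators 1 of 16 higher and 4 lower (-0.18; 4 and 1 with median-of-ratios scaling), fusel and other aldehyde enzymes 1 of 23 higher and 5 lower (-0.04; 2 and 0 with that scaling), and the coenzyme A and beta-alanine route 0 of 8 higher and 1 lower (0.26; 1 and 0). With that scaling the ethanol and acetate route had 6 higher and 1 lower, the stress element genes 1 and 1, and the Zap1 targets 8 and 0. In SD, 10 of 16 stress element genes were higher and none lower, with a median of 1.87 against -0.37 for all genes. For the Adr1 and Cat8 targets 7 of 14 were higher and 1 lower (0.81), for Zap1 targets 3 of 11 higher and none lower (0.62), and for the ethanol and acetate route 3 of 16 higher and 1 lower (0.35). Regulators had 3 of 16 higher and 2 lower (0.23; 7 and 1 with median-of-ratios scaling), fusel and other aldehyde enzymes 7 of 23 higher and 2 lower (0.75; 11 and 0 with that scaling), and the coenzyme A and beta-alanine route 1 of 8 higher and 3 lower (-0.41; 1 and 2). With that scaling the stress element genes had 11 higher and none lower, the Adr1 and Cat8 targets 9 and 0, the Zap1 targets 5 and 0, and the ethanol and acetate route 3 and 0. ALD5, the minor mitochondrial aldehyde dehydrogenase gene, was higher in GD and in SD, with 397 to 949 FPKM in GD, 525 to 639 FPKM in SD and 50.4 FPKM in control (3.47 and 3.49; limma adjusted p = 0.00426 and 0.00194).

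In the second table, RD against ControlSYN3, none of the 10 genes was called, and neither was any of the 5895 genes tested (0%); limma without a variance trend called 1 gene, none of the 10. At an unadjusted p under 0.05, limma gave 671 genes, of which 1 was among the 10, ALD6. RD1 differed from the mean of RD5 and RD6 by over 2 times in ADH1, ADH2, ADH5, ALD2 and ALD4. The share of all genes that did so was not counted, and whether this sets these genes apart was not tested. Without RD1, 8 of the 10 were called, 3 higher and 5 lower, where 53.9% of all genes were called, 22.1% higher and 31.8% lower. That fit has only RD5 and RD6 to measure the spread, on 1 residual degree of freedom, and these lie close together. Over 9 alternatives it gave each of the 10 genes its lowest adjusted p, and the highest lay between 0.911 and 0.997. RD lay wholly to one side of ControlSYN3 in 7 of the 10, against 70.2% of all genes.

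ADH5 was at 300.5, 81.0 and 54.3 FPKM in RD1, RD5 and RD6, against 521 FPKM in ControlSYN3. All RD libraries lay below ControlSYN3, RD1 nearest to it. The log2 fold change was -2.23 ± 1.09 SE (limma adjusted p = 0.411) with RD1 and -2.95 ± 0.25 SE (limma adjusted p = 0.00242) without it. ADH2 was at 44.3, 22.5 and 19.8 FPKM in RD1, RD5 and RD6, against 67.6 FPKM in ControlSYN3 (-1.29 ± 0.53, SE, with RD1, limma adjusted p = 0.410; -1.63 ± 0.12, SE, without, 0.00209). ALD4 was at 560, 251 and 233 FPKM in RD1, RD5 and RD6, against 500 FPKM in ControlSYN3, so that RD1 lay above it and RD5 and RD6 below (-0.64 ± 0.63, SE, with RD1, limma adjusted p = 0.588; -1.04 ± 0.12, SE, without, 0.00455). In the mean of RD5 and RD6, ADH5, ADH2 and ALD4 stood at 0.130, 0.313 and 0.485 of ControlSYN3.

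ALD6 was at 299, 317 and 316 FPKM in RD1, RD5 and RD6, against 180 FPKM in ControlSYN3. Here all 3 RD libraries lay together above ControlSYN3, and the log2 fold change was 0.79 ± 0.20 SE (limma adjusted p = 0.410) with RD1 and 0.81 ± 0.11 SE (limma adjusted p = 0.00606) without it. ADH6 was at 101, 126 and 132 FPKM in RD, against 83.4 FPKM in ControlSYN3, and ADH3 at 410, 425 and 367 FPKM in RD, against 286 FPKM in ControlSYN3; both lay above in all 3. ADH6 was called without RD1 (0.62; limma adjusted p = 0.00933) and ADH3 was not (0.47; 0.0563). ALD3 was at 201, 159 and 136 FPKM in RD, against 109 FPKM in ControlSYN3 (0.43 without RD1; limma adjusted p = 0.0484), and SFA1 at 118, 93.2 and 104 FPKM in RD, against 132 FPKM in ControlSYN3 (-0.42 without RD1; limma adjusted p = 0.0386).

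ADH1 and ALD2 showed RD1 on the other side of ControlSYN3 from RD5 and RD6. ADH1 was at 1153 FPKM in RD1 and at 3641 and 3398 FPKM in RD5 and RD6, against 2796 FPKM in ControlSYN3. Its log2 fold change was -0.21 (95% interval -2.66 to 2.25) with RD1 and 0.33 (interval -0.18 to 0.84; limma adjusted p = 0.205) without. ALD2 was at 75.8 FPKM in RD1 and at 31.3 and 29.8 FPKM in RD5 and RD6, against 39.3 FPKM in ControlSYN3, which gave 0.07 with RD1 and -0.35 without it (limma adjusted p = 0.0425). RD1 thus had 0.328 of the ADH1, 4.44 times the ADH5, 2.48 times the ALD2, 2.31 times the ALD4 and 2.10 times the ADH2 of the mean of RD5 and RD6. These ratios involve a single library whose mating-type genes also differed, and the part of that difference in them was not tested.

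The 7 lists gave no calls in RD against ControlSYN3 with RD1 in the fit. Without it, 53.9% of all genes were called, 22.1% higher and 31.8% lower, and the list counts are to be read beside these shares. In that fit 11 of 14 Adr1 and Cat8 targets were lower and 1 higher, and 8 of 16 stress element genes were lower and none higher. The ethanol and acetate route had 5 of 16 higher and 5 lower, Zap1 targets 5 of 11 higher and 1 lower, regulators 3 of 16 higher and 6 lower, fusel and other aldehyde enzymes 4 of 23 higher and 13 lower, and the coenzyme A and beta-alanine route 1 of 8 higher and 4 lower. ADR1, the activator gene of ADH2, was at 55.6, 21.0 and 19.6 FPKM in RD1, RD5 and RD6, against 58.6 FPKM in ControlSYN3. In the first table ADR1 was at 40.2, 22.1 and 22.5 FPKM in GD, 81.6, 98.8 and 96.7 FPKM in SD and 54.7 FPKM in the control. ADH4 was at 546, 377 and 289 FPKM in RD1, RD5 and RD6, against 59.7 FPKM in ControlSYN3. ZRT1 was at 2196, 1693 and 1498 FPKM in RD1, RD5 and RD6, against 52.5 FPKM in ControlSYN3. With RD1 in the fit their log2 fold changes were 2.69 and 5.05, not called (limma adjusted p = 0.410 and 0.317).

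Likeness of pattern was measured by the Pearson correlation of log2(FPKM + 1) over the 7 libraries of GD, SD and control, among 5647 genes averaging 10 FPKM or more, and is given as a description, since these libraries form 3 groups and share their scaling. The genes nearest to ADH2 were OCA1 (r = 0.990), PRP24 (0.989) and YAF9 (0.985), and over the 4 libraries of the other table r was 0.979, -0.110 and 0.927. Those nearest to ALD6 were NHP6B (0.982), GID8 (0.973) and TCB3 (0.969), with 0.515, -0.731 and -0.762 in the other table. For ADH1 they were VTC5 (0.899), DUG2 (0.880) and VPS63 (0.865), with 0.217, 0.345 and 0.663. The search was repeated for ADH5 after its values had been seen. Its nearest genes were PYC2, a pyruvate carboxylase gene (0.997), ECM3 (0.996) and BNA1, of NAD synthesis from tryptophan (0.996), with 0.993, -0.304 and 0.995 in the other table. BNA1 was at 727 to 1535 FPKM in GD, 1048 to 1392 FPKM in SD and 94.1 FPKM in the control, and at 1197, 710 and 530 FPKM in RD1, RD5 and RD6, against 1533 FPKM in ControlSYN3.

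**Figure D4:**
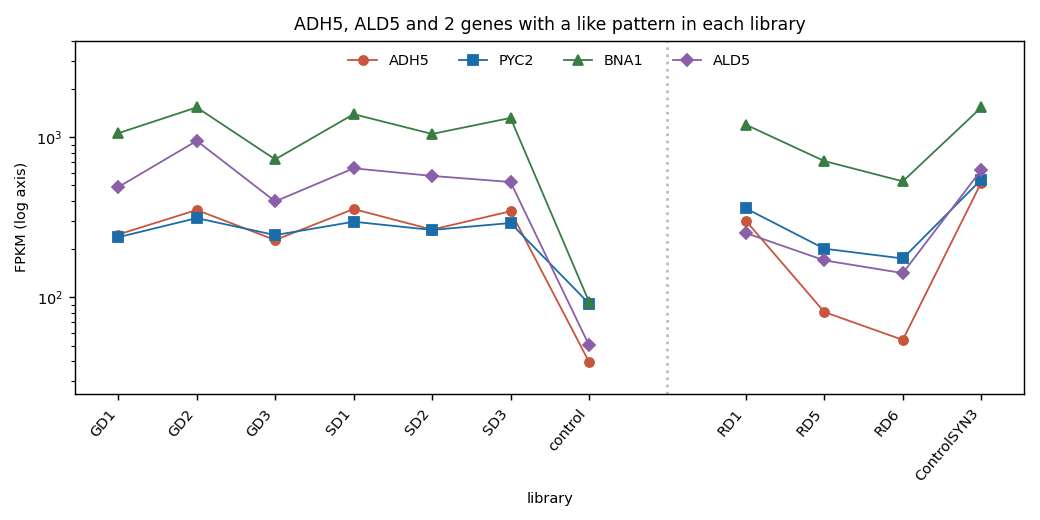
FPKM (log axis) of ADH5, PYC2, BNA1 and ALD5 in each library; lines join the values of a gene within a table and stand for no order. All 4 genes are lowest in the control in the first table and highest in ControlSYN3 in the second. PYC2 and BNA1 were picked for their likeness to ADH5 in the first table, and ALD5 after its values were seen. ECM3, also near ADH5 in the first table but not drawn, is at 98.2 FPKM in RD5 against 96.7 FPKM in ControlSYN3.

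Among the 10 genes themselves, over the 7 libraries of the first table, ALD3 and ALD4 had r = 0.924, ALD2 and ALD3 had 0.876, and ADH6 and ALD3 had -0.968. ADH1 and ADH2, which share coding sequence, had -0.142. In the 4 libraries of the second table ADH2 and ADH5 had r = 0.994, whereas in the first they had -0.412.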

How the data were processed

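The authors deposited FPKM, per the file headers, in 2 tables that were analysed separately. The submitters' processing notes name BWA, Bowtie2 and RSEM and the build R64, without versions or roles. No source used here states strandedness, so antisense reads cannot be told apart. FPKM are relative to the library, so large changes of abundant genes move the other values. At the best grid point of fragment length and library size, 33.3% to 86.7% of 15 to 19 low values per library lay within 0.1 of a whole number, so whole fragments were not recovered and depth and counting error are unknown.

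Gene numbers were matched to RefSeq R64 (5774 of 5936 and 5770 of 5931 rows). limma 3.58.1 (R 4.3.3; trend and robust empirical Bayes, a mean per group, Benjamini-Hochberg at 0.05) was fitted to log2(FPKM + 1) of genes averaging 1 FPKM or more, with 4 and 2 residual degrees of freedom. Fold changes on this scale understate changes of low genes. The script was tested on simulated data. Ratios were compared with exact permutation tests in scipy 1.17.1. Sequences come from RefSeq R64 (biopython 1.88).

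The 10 genes and the 7 lists were chosen with earlier results of these data known. The rule named all 10 genes, at most 3 called genes per list, and the 3 nearest genes by correlation for ADH1, ADH2 and ALD6. ADR1, ALD5 in places, ADH4 and ZRT1 in RD, and the genes nearest to ADH5 were named after their values were seen. Alternatives were median-of-ratios and common-sum scaling, a pseudocount of 0.1, no minimum or one of 10 FPKM, no trend, fits on the compared groups alone, strain number as a replicate block, and each strain library left out. A count of genes that do not overlap between groups is set beside that of all genes tested. Rows for ADH7, ADY2 and GLK1 of the lists were not analysed here.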

Additional observations from a re-analysis of the deposited data

Results flagged for a closer look

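ALD3 and ALD4 lay on opposite sides of the control in the GD and the SD strains: every GD library was below and every SD library above it. The flag itself required a call in GD against SD, so that test is no separate support for it. The log2 fold change of GD against SD was -2.66 for ALD3 and -1.95 for ALD4 (limma adjusted p = 0.000663 and 0.00442). Against the control, only ALD3 in SD was called (limma adjusted p = 0.0193). ALD3 in GD (limma adjusted p = 0.0683) and ALD4 in GD and SD (0.0737 and 0.305) were not. How many of all genes lay on opposite sides was not counted, so whether this sets ALD3 and ALD4 apart was not tested. Lying wholly to one side of the control was common: 75.8% of all genes did so in GD and 88.9% in SD. The control is a single library.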

How the results depend on the processing

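The number of members called changed by more than 1.5 times in a few settings. In fits of only the groups compared it was 1 for GD against control (4.61% of all genes called) and 5 for SD against control (61.8% of all genes called), in place of 2 (32.1%) and 3 (41.8%). Leaving out 1 library gave 2 to 5 for GD against control (5 without GD2, with 47.1% of all genes called). For SD against control it gave 2 to 4 (2 without SD3, with 28.0% of all genes called, and 4 without GD2, with 55.1%). For GD against SD it gave 3 to 7, in place of 6 with 40.8% of all genes called. The 3 came without SD3, with 21.4% of all genes called, and the 7 without GD2, with 54.6%. For RD against ControlSYN3 it gave 0 to 8 (8 without RD1, with 53.9% of all genes called, in place of 0). Signs turned with median-of-ratios scaling for ADH1 in GD against control (0.013) and for ADH3, SFA1 and ALD2 in SD against control (0.00906, 0.32 and 0.322), and with rescaling to a common sum for SFA1 and ALD2 in SD against control (0.0409 and 0.0455) and ALD2 in RD against ControlSYN3 (-0.00386). Leaving out 1 library gave -0.0853 to 0.0166 for ALD2 (positive without SD1) and -0.142 to 0.0886 for SFA1 (positive without SD2) in SD against control, and -0.498 to 0.33 for ADH1 (positive without RD1) and -0.353 to 0.305 for ALD2 (negative without RD1) in RD against ControlSYN3. None of these values was called apart from ALD2 without RD1, and the cause was not tested. In GD against SD, 127 of 140 gene values kept their direction and side of the threshold, 12 fell below it and 1 rose above it. Without 1 library the difference in the log2 ratio of ALD4 to ALD6 was -1.65 to -1.03, of ADH2 to ADH1 -1.52 to -0.16 and of ADH3 to ADH1 -0.81 to -0.25. Other genes of the lists called numbered 33 in GD against control (6 in the fit of these groups alone, 19 without SD1 and 17 without SD3), 40 in SD against control (61 in the fit of these groups alone, 25 without SD3), 60 in GD against SD (41 to 65 without 1 library) and 0 in RD against ControlSYN3 (61 without RD1).

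The strain numbers do not pair GD and SD: deviations of same-numbered libraries correlated at -0.126, -0.180 and -0.166. With strain number as a replicate block, 4 members and 33.2% of all genes were called in GD against SD; ADH6 (limma adjusted p = 0.0908) and SFA1 (0.0796) were no longer called, and the ALD4 to ALD6 difference stayed at -1.27 (exact permutation p = 0.25, the smallest that 3 pairs allow). Depth is unknown, which limits the lowest values: ALD2, ADH2 and ALD3 in GD, ADH5 in the control and in RD6, and ALD2 and ADH2 in RD.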
